A study of Mus musculus with 14 samples.

Results

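The 13 proteins of oxidative phosphorylation that the mouse mitochondrial genome encodes and the nuclear-encoded subunits that assemble with them were followed through 14 cultured clones of bone marrow skeletal cells. Members were chosen by gene name alone: the Nduf, Sdh, Uqcr, Cox and Atp5 subunits of complexes I to V and the mt-Nd, mt-Co, mt-Atp and mt-Cytb genes. The names matched 95 of the 55427 genes in the TPM table, 82 of them nuclear and 13 mitochondrial. Of these, 92 were among the 30503 genes of the count table and 89 passed the filter on low counts, 76 nuclear and all 13 mitochondrial, out of 17358 genes tested.

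Oxidative phosphorylation passes electrons from NADH through complex I, or from succinate through complex II, to complex III, cytochrome c and complex IV, and the proton gradient so made drives ATP synthesis by complex V. Complexes I, III, IV and V are mosaics of both genomes, while complex II is nuclear-encoded only. The mitochondrial genes are transcribed as long polycistronic RNAs that are cut into single transcripts, whereas each nuclear subunit has its own promoter.

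The study compared clones with and without Trp53, the gene of the tumour suppressor p53. All clones were grown from tdTomato+ cells of femoral marrow of mice given tamoxifen at P21. The control clones (Fgfr3-WT, n = 5) carried Fgfr3-creER; R26R(tdTomato/+) and came from mice at postnatal day 23, cultured to passage 8. The p53-deleted clones (Fgfr3-p53 cKO) carried Fgfr3-creER; Trp53fl/fl; R26R(tdTomato/+) and came from mice at P28 (n = 5, passage 8) or at 4 months of age (P4M, n = 4, passages 6 to 8). Recombination was limited to cells in which the Fgfr3-creER driver was active, and each library was 1 clone. The labels do not tie clones to mice, so p-values measure the spread between clones. The sample names of all Fgfr3-WT libraries begin with 1303 and those of all cKO libraries with 2963. The labels do not say what these numbers stand for, but a difference between these library sets and one between genotypes cannot be told apart, whereas P4M and P28 clones belong to the same set.

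Library totals ranged from 25688946 to 52857424 reads on genes. Trp53 lay between 49.9 and 68.2 CPM (counts relative to the library total scaled by TMM factors) in the Fgfr3-WT clones and between 1.72 and 2.84 CPM in the cKO clones, with no overlap. All 9 skeletal stromal markers listed were tested, and their summed level was 1570 to 7330 TPM in Fgfr3-WT, 6350 to 10800 TPM in P28 and 7110 to 11500 TPM in P4M clones. Summed blood markers (2 of 9 tested, Hbb-bs at 0) lay at 6.06 to 67.3, 3.11 to 4.16 and 2.38 to 9.67 TPM in that order. Striated muscle markers (3 of 10 tested; Myh4, Myh6, Myod1 and Myog at 0) lay at 0.15 to 5.07, 4.31 to 27.9 and 1.84 to 3.13 TPM, and endothelial markers (1 of 5 tested, Cdh5 at 0) at 0.03 to 0.25, 0.15 to 1.31 and 0.75 to 3.26 TPM. No adipocyte or germ cell marker passed the filter, and their sums stayed at or below 0.4 TPM (Prm1 and Tnp1 at 0). In such bulk libraries less RNA per cell and fewer cells of a kind cannot be told apart.

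The measurement of the mitochondrial genes depends on near-identical copies of mitochondrial DNA in the nuclear genome. Annotated pseudogenes with at least 95% identity over at least 100 bases were found for 9 of the 13 genes, and 11 such pseudogenes had counts. 7 of them lie side by side on the minus strand of chromosome 1 (mm10, positions 24611535 to 24616197, a stretch of 4663 bases) in the order of the mitochondrial genome, from a copy of mt-Nd4 to a copy of part of mt-Co1. A stretch of 120 bases of mt-Co2, the second subunit of cytochrome c oxidase, is shown beside its copies to make plain what a read can and cannot tell apart. Capitals mark the positions at which the mt-Co2 gene and Gm13341 differ.
mt-Co2, chrM:7457-7576 (plus strand): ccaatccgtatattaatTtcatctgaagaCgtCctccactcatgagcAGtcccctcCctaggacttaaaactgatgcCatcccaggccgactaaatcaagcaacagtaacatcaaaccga
Gm28661, chr1:24615002-24615121 (minus strand): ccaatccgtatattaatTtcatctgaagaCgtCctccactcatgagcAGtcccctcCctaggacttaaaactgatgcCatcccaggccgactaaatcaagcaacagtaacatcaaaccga
Gm13341, chr2:22587411-22587530 (minus strand): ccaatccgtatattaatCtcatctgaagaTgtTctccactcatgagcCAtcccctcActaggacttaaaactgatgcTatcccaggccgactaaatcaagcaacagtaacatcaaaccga
The Gm28661 copy on chromosome 1 has 0 differences from the gene in this window, and its 681 aligned bases match without a mismatch. The Gm13341 copy on chromosome 2 has 7 differences in the same window. The closest copy of mt-Nd3, a membrane subunit of complex I, differs from the gene at 1 position over 345 bases, which is the capital in the next pair.
mt-Nd3, chrM:9461-9580 (plus strand): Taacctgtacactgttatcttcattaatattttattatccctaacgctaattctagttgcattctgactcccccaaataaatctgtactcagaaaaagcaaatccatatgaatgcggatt
Gm28438, chr1:24612998-24613117 (minus strand): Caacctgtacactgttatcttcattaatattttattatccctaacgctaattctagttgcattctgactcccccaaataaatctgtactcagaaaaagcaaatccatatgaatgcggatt
Sequences are from the mm10 assembly with GENCODE M21 gene models. Over all 14 clones the copies of mt-Co2, mt-Co3, mt-Nd3, mt-Atp6 and mt-Nd4l on chromosome 1 held 5.47, 2.56, 1.66, 1.53 and 1.32 times the counts assigned to the genes themselves. The copies of mt-Nd2 and mt-Nd5 held under 4% of the joint counts in every clone. No annotated copy was matched for mt-Nd1, mt-Cytb, mt-Nd6 or mt-Atp8.

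The division of counts between gene and copy differed between the library sets. Of the joint counts of mt-Nd4l and its copy Gm10222, which are the same over 294 bases, mt-Nd4l held 6.05, 7.21, 6.61, 6.83 and 5.95% in the 5 Fgfr3-WT clones. It held 56.0, 60.1, 58.4, 61.7 and 65.6% in the P28 clones and 59.1, 61.5, 64.3 and 62.0% in the P4M clones. The cKO clones therefore all lay far above the Fgfr3-WT clones, and the P28 and P4M ranges overlapped. The 5 genes with a dominant copy together held 10.9% ± 1.61 of the joint counts in Fgfr3-WT (SD, n = 5), 36.5% ± 1.97 in P28 (n = 5) and 34.3% ± 4.32 in P4M clones (n = 4). For mt-Co1 the share was 83.4 to 88.1% in Fgfr3-WT and 90.9 to 93.7% in cKO clones, and for mt-Nd4 86.5 to 90.9% and 88.0 to 95.9%. The part of library set and of genotype in this division cannot be told apart.

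**Figure D1:**
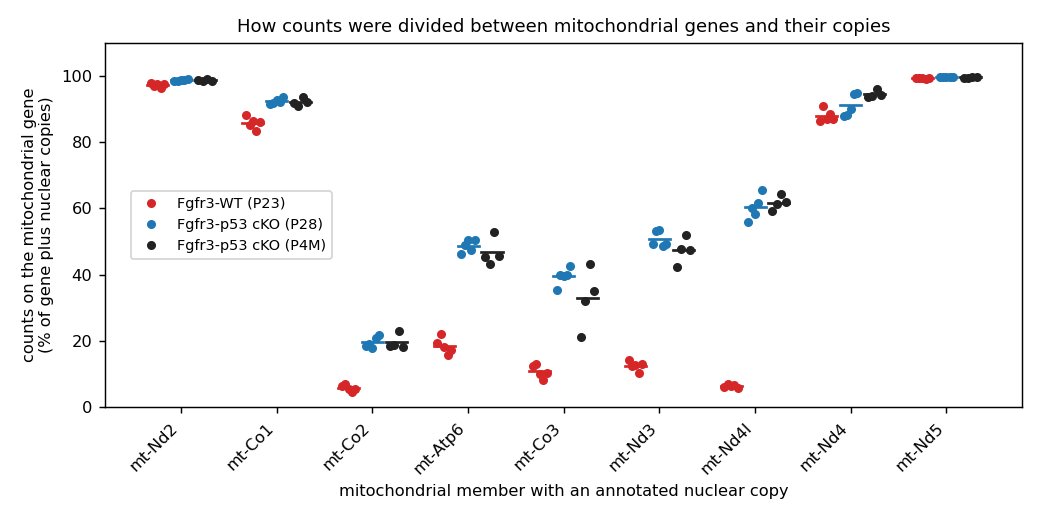
Share of the joint counts of a mitochondrial gene and its nuclear copies that was assigned to the mitochondrial gene (y axis, percent), for each clone (points) with the group mean (line), by gene (x axis). For mt-Nd4l the 5 Fgfr3-WT clones sit between 5.95 and 7.21% and the 9 cKO clones between 56.0 and 65.6%, whereas for mt-Nd2 and mt-Nd5 every clone lies above 96%.

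With the counts as deposited, the mitochondrial members split in both directions. In P28 against Fgfr3-WT, 5 of 13 rose and 6 fell (adjusted p under 0.05 in edgeR's quasi-likelihood test), beside 19.2% of all tested genes that rose and 19.7% that fell. In P4M against Fgfr3-WT, 5 rose and 3 fell, beside 22.3% and 23.6% of all genes. The median log2 fold change over the 13 was −0.43 in P28 and 0.08 in P4M, and over all genes −0.02 and −0.06. The 5 that rose were mt-Nd4l, mt-Nd3, mt-Co2, mt-Co3 and mt-Atp6 in both comparisons, which share the Fgfr3-WT clones, and they are the 5 genes whose chromosome 1 copy held more counts than the gene.

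mt-Nd4l (mm10 chromosome M, 9877 to 10173, plus strand), a membrane subunit of complex I whose reading frame overlaps that of mt-Nd4, had the highest fold change of all members. Its levels were 23.5, 11.9, 24.4, 21.2 and 20.3 CPM in Fgfr3-WT, 109, 101, 105, 130 and 127 CPM in P28, and 134, 174, 166 and 147 CPM in P4M clones. No cKO clone overlapped an Fgfr3-WT clone, and the log2 fold changes were 2.50 ± 0.18 (SE, adjusted p = 3.38e-06) and 2.94 ± 0.19 (adjusted p = 1.48e-06). With the counts of Gm10222 added, the same clones lay at 389, 166, 368, 311 and 341 CPM in Fgfr3-WT, 194, 167, 180, 212 and 194 CPM in P28, and 226, 283, 258 and 237 CPM in P4M. The direction then turned: the joint level fell by 0.73 on the log2 scale in P28 (adjusted p = 0.00838) and had a log2 fold change of −0.33 in P4M that did not pass (adjusted p = 0.2). WT replicate 2 was the lowest control clone in both cases. After the addition it lay below every cKO clone, while the other 4 controls lay above every cKO clone.

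mt-Co2, which receives electrons from cytochrome c, showed the same turn. As deposited it lay at 349, 215, 427, 273 and 264 CPM in Fgfr3-WT, 531, 560, 466, 624 and 582 CPM in P28, and 519, 647, 1038 and 702 CPM in P4M clones. These groups did not overlap, with log2 fold changes of 0.86 ± 0.21 (adjusted p = 0.0063) and 1.25 ± 0.22 (adjusted p = 0.000678). With copies added, the Fgfr3-WT clones were at 5423, 3072, 7670, 5854 and 4825 CPM and the P28 clones at 2867, 2954, 2582, 2992 and 2678 CPM. That is a log2 fold change of −0.93 ± 0.21 (adjusted p = 0.00413) in P28 and of −0.55 ± 0.23 (adjusted p = 0.0605) in P4M, where the joint levels were 2824, 3460, 4498 and 3867 CPM.

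The other 3 genes that rose as deposited were mt-Nd3, a further complex I subunit, mt-Co3, of complex IV, and mt-Atp6, the proton channel subunit of complex V. mt-Nd3 had log2 fold changes of 1.40 in P28 and 1.72 in P4M, and of −0.62 and −0.21 with copies added. mt-Co3 went from 1.07 and 1.46 to −0.84 and −0.22, and mt-Atp6 from 1.0 and 1.46 to −0.43 and 0.08. With copies added, mt-Nd3 and mt-Co3 fell in P28 (adjusted p = 0.0402 and 0.00711), and mt-Atp6 in P28 and all 3 in P4M did not pass the test.

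4 of the 13 genes fell in P28 in every setting tried: mt-Atp8, mt-Nd6, mt-Nd5 and mt-Nd2. No copy was matched for mt-Atp8 or mt-Nd6, so adding copies could not change their counts. Copies of mt-Nd5 and mt-Nd2 held only a small part of the joint counts. The chromosome 1 stretch also spans the place between the copies of mt-Co2 and mt-Atp6, which flank mt-Atp8. Its effect on the counts of mt-Atp8 was not tested. mt-Atp8 (chromosome M, 7766 to 7969), a small complex V subunit whose end overlaps the start of mt-Atp6, lay at 310, 88.1, 246, 243 and 200 CPM in Fgfr3-WT. It lay at 42.4, 47.5, 45.1, 46.5 and 42.8 CPM in P28 and at 54.6, 58, 56.9 and 59.8 CPM in P4M clones. All 9 cKO clones were below the lowest control, WT replicate 2, and the log2 fold changes were −2.28 ± 0.25 (adjusted p = 4.3e-05) and −1.92 ± 0.26 (adjusted p = 0.000136).

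mt-Nd6 (chromosome M, 13552 to 14070), the only protein gene on the other DNA strand, lay at 859, 743, 1002, 1083 and 910 CPM in Fgfr3-WT. It lay at 387, 335, 346, 385 and 310 CPM in P28 and at 346, 531, 549 and 406 CPM in P4M clones, without overlap with the controls. The log2 fold changes were −1.38 ± 0.16 (adjusted p = 5.44e-05) and −1.0 ± 0.17 (adjusted p = 0.000439). Its 3′ end overlaps mt-Nd5 on the opposite strand, and the sources used here do not say that counting used strand.

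mt-Nd5, a core proton-pumping subunit of complex I, fell by 0.85 in P28 (adjusted p = 0.0027) and by 0.54 in P4M (adjusted p = 0.0356) on the log2 scale. mt-Nd2, another pump subunit of complex I, fell by 1.01 in P28 (adjusted p = 0.00227), and in P4M its log2 fold change of −0.38 did not pass (adjusted p = 0.182). mt-Co1, the catalytic subunit of cytochrome c oxidase, and mt-Nd4 fell in P28 by 0.68 and 0.46 (adjusted p = 0.00767 and 0.0351), with log2 fold changes near 0 in P4M (−0.01 and −0.02). mt-Nd1, of complex I, and mt-Cytb, of complex III, for which no copy was matched, did not pass in either comparison: −0.43 and −0.28 in P28 (adjusted p = 0.0789 and 0.276), 0.08 and 0.09 in P4M. With copies added, 0 of the 13 rose and 10 fell in P28 (19.2% of all genes rose and 19.7% fell in that fit) and 0 rose and 3 fell in P4M (22.3% and 23.6%). All 13 log2 fold changes in P28 were then negative, with a median of −0.78, and the median in P4M was −0.22.

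**Figure D2:**
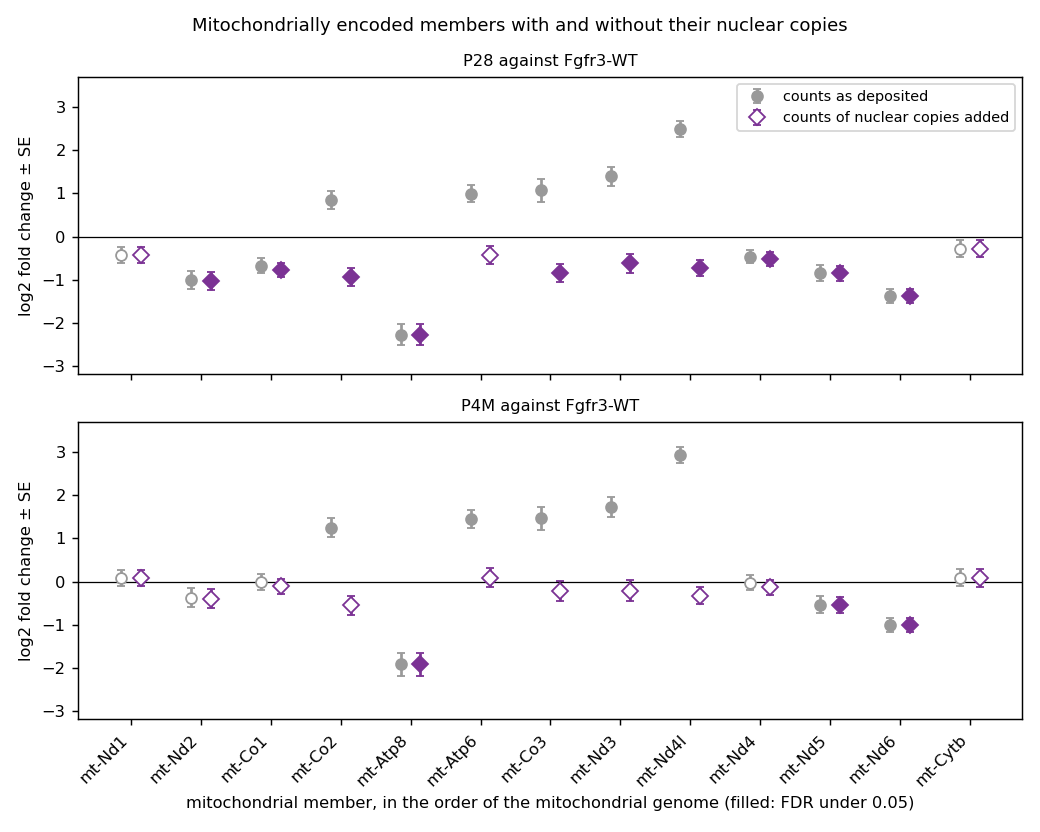
Log2 fold change (y axis) of the 13 mitochondrial genes (x axis, in genome order) in P28 and P4M against Fgfr3-WT, with the counts as deposited (circles) and with the counts of nuclear copies added (diamonds), as edgeR estimates with bars of 1 SE and filled points past the threshold. mt-Nd4l moves from 2.50 to −0.73 in P28 once its copy is added. mt-Atp8, for which no copy was matched and none could be added, is at −2.28 in both.

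WT replicate 2 was the lowest of the 5 control clones for all 13 mitochondrial genes, beside 17.3% of all tested genes. Without it, 8 of 13 fell in P28, in place of 6, and the median log2 fold change was −0.56, beside −0.02 over all genes. The share of all genes called in that fit is not given here. The mitochondrial rRNAs moved in the direction of the genes that fell: mt-Rnr1, of the small ribosomal subunit, fell by 1.88 and 1.83 on the log2 scale (adjusted p = 0.00119 and 0.00177). mt-Rnr2, of the large subunit, fell by 0.81 in P28 (adjusted p = 0.0188) and did not pass in P4M (−0.60, adjusted p = 0.0742). WT replicate 2 was here the highest control. Mitochondrial rRNA made up 0.395% of its library, beside 0.179 to 0.224% in the other controls. P4M replicate 3, at 0.185%, lay within the control range, and the other cKO clones lay below every control. The rRNA differences without WT replicate 2 are not given here.

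By the median log2 fold change and the small share that rose, the nuclear members leaned to lower counts in the cKO clones. Their summed part of the library, given below, was nearly the same in each group. In P28 against Fgfr3-WT, 6 of 76 rose, 19 fell and 51 did not pass, and the median log2 fold change was −0.22 beside −0.02 for all genes. In P4M, 9 rose, 20 fell and 47 did not pass, with a median of −0.14 beside −0.06. The share that fell, as the share that rose, is to be read against the percentages of all genes given above (19.7% and 23.6% fell). A difference among the 3 groups was called for 29 of the 76 and for 11 of the 13 mitochondrial members, beside 50.6% of all genes. Of those that rose, 5 were called in both comparisons, which is 83.3% of the P28 and 55.6% of the P4M list, and of those that fell 14 were, 73.7% and 70% of the lists. Both comparisons use the same control clones.

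The count of members that fell depended on single clones in both directions. WT replicate 1 was the lowest of the 5 controls for 54 of the 76 nuclear members, beside 29.6% of all tested genes. Without it, 34 fell in P28 and 29 in P4M, beside 21.6% and 24.7% of all genes. Without WT replicate 4, and likewise without P28 replicate 3, 12 fell in P28, and the shares of all genes in those fits are not given here. The scale mattered as well. In limma on log2(TPM + 1) the median of all genes moved to 0.20 in P28, the nuclear median to 0.14, and 19 nuclear members rose and 10 fell, beside 29.6% and 11.2% of all genes. Relative to the median of all genes the nuclear median was −0.20 in the counts and −0.06 in TPM.

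Complex II, succinate dehydrogenase, held the nuclear member that rose most. Sdhb (chromosome 4, 140961203 to 140979193, plus strand), its iron-sulphur subunit, lay at 31.8, 33.3, 38.3, 43.5 and 36.6 CPM in Fgfr3-WT. It lay at 73.6, 85.3, 62.5, 70.9 and 75.7 CPM in P28 and at 96.9, 85.2, 104 and 77.3 CPM in P4M clones. No cKO clone overlapped a control, and the fold was 2.01 in P28 (log2 1.0 ± 0.13, adjusted p = 0.000104) and 2.48 in P4M (log2 1.31 ± 0.13, adjusted p = 2.11e-05). The call held in all 25 alternatives in both comparisons. Its partners did not pass in either: Sdha, the flavoprotein, had log2 fold changes of 0.12 and −0.18, and the membrane anchors Sdhc and Sdhd 0.44 and 0.20 in P28 and 0.24 and 0.23 in P4M.

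Complex III split by subunit, with 2 of 8 nuclear members higher and 3 lower in P28, and 2 and 4 in P4M. Uqcrfs1, the Rieske iron-sulphur protein, lay at 30.1, 34.4, 42.9, 42.5 and 43.6 CPM in Fgfr3-WT, 54.8, 70, 59.6, 57 and 66.3 CPM in P28, and 73.6, 76.1, 60.4 and 77.7 CPM in P4M clones. It rose without overlap by 0.67 ± 0.13 (adjusted p = 0.00167) and 0.89 ± 0.14 (adjusted p = 0.000287) on the log2 scale. Uqcrc1, a core protein, rose by 0.50 and 0.48 (adjusted p = 0.0199 and 0.0249).
Uqcr11 (chromosome 10, 80402997 to 80406830, minus strand), a small accessory subunit, went the other way. It lay at 70, 86.5, 81.3, 131 and 152 CPM in Fgfr3-WT, 49.9, 52.9, 49.3, 61.5 and 49.4 CPM in P28, and 52.1, 52.1, 53.6 and 40.1 CPM in P4M clones. All cKO clones were below all controls, and the log2 fold changes were −0.99 ± 0.20 (adjusted p = 0.00188) and −1.07 ± 0.21 (adjusted p = 0.00138), kept in all 25 alternatives. Uqcr10, a further small subunit, fell by 0.68 and 0.66 (adjusted p = 0.00331 and 0.00478). Uqcrq fell in P28 and Uqcrh and Uqcrc2 in P4M. The Uqcrq call held in only 3 of 11 other settings and 3 of 14 fits that left out 1 clone, and the Uqcrc2 call in 6 and 6.

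Complex I, the NADH dehydrogenase, held the most members, 36 by name. These include Ndufa4, which is now placed in complex IV and was not called against Fgfr3-WT. Of the 36, 0 rose and 9 (25%) fell in P28, and 1 rose and 10 (27.8%) fell in P4M, beside 19.7% and 23.6% of all genes that fell. These shares of all genes, with 19.2% and 22.3% that rose, also stand beside the counts of the other complexes. Ndufa1 (X chromosome, 37187588 to 37191163, minus strand), a single-pass membrane subunit, had the most negative fold change of the nuclear members. It lay at 19.9, 153, 102, 208 and 159 CPM in Fgfr3-WT, 27.3, 29.5, 30.6, 35.3 and 27.9 CPM in P28, and 28.8, 27.4, 26.9 and 22.4 CPM in P4M clones. 4 control clones were at or above 102 CPM, but WT replicate 1, at 19.9 CPM, lay below every cKO clone, so the groups overlapped through 1 clone. The log2 fold changes were −2.09 ± 0.42 (adjusted p = 0.00189) and −2.28 ± 0.46 (adjusted p = 0.00152), and −2.39 and −2.56 without that clone.

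Ndufc2, an accessory subunit of the membrane arm, lay at 29.8, 46.9, 50, 72 and 60.4 CPM in Fgfr3-WT, 28, 31.5, 25.5, 17.4 and 18.8 CPM in P28, and 21.8, 19.6, 19.5 and 17.6 CPM in P4M clones. Only WT replicate 1 reached into the P28 range, and the log2 fold changes were −1.09 ± 0.22 (adjusted p = 0.00208) and −1.40 ± 0.24 (adjusted p = 0.000576). Ndufb10, another accessory subunit, lay at 61.8, 106, 75.9, 148 and 115 CPM in Fgfr3-WT and between 46.5 and 60 CPM in all 9 cKO clones. It fell by 0.93 and 0.98 on the log2 scale (adjusted p = 0.00239 and 0.00223). Ndufb3 fell by 0.82 and 1.10 (adjusted p = 0.00309 and 0.000632), and Ndufa12 by 0.77 and 0.62 (adjusted p = 0.00212 and 0.00869).
Ndufa3 fell in P4M only past the threshold (−1.38, adjusted p = 0.00186), with −0.60 in P28 (adjusted p = 0.0861), and the difference between P4M and P28, −0.78, did not pass (adjusted p = 0.102). Ndufb4 fell by 0.71 and 0.70, and its value is uncertain because the retrocopy Ndufb4c, identical over 390 bases, held 1.74 times its counts; with copies added it still fell (adjusted p = 0.00689 and 0.00951). The catalytic core subunits that bind NADH and the iron-sulphur clusters moved less. Ndufv1 and Ndufs1 did not pass in either comparison (−0.24 and −0.27 in P28, −0.01 and −0.05 in P4M) and Ndufs7 fell in P28 by 0.45 (adjusted p = 0.0158).

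**Figure D3:**
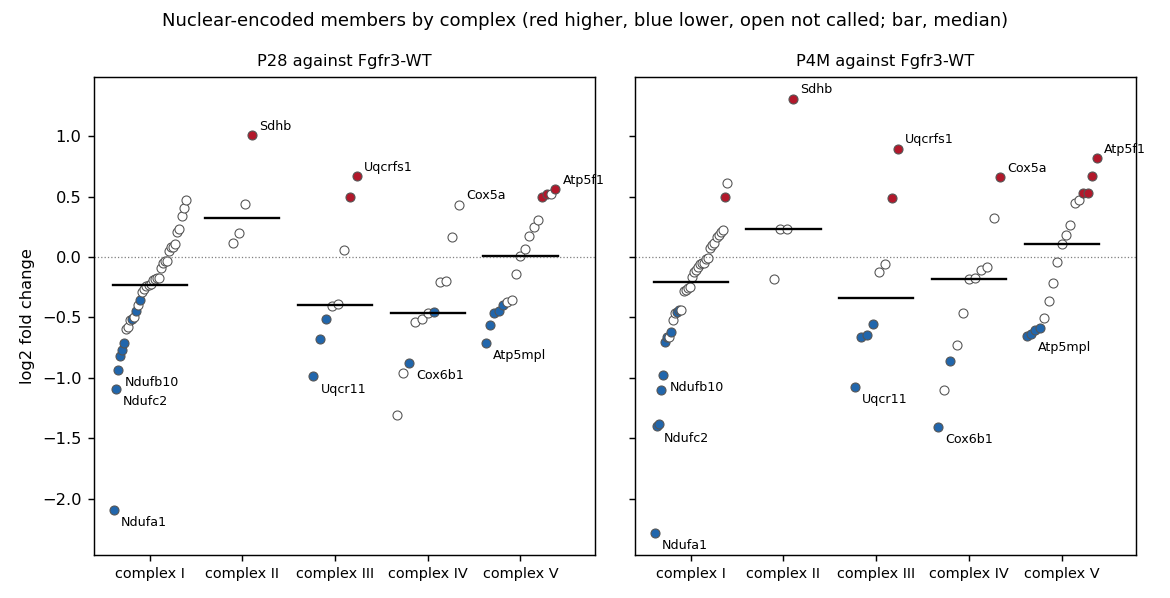
Log2 fold change of the tested nuclear members against Fgfr3-WT, arranged by respiratory complex, in P28 and P4M clones (edgeR estimates; red rose, blue fell, open did not pass, bar the median). Sdhb stands at the top with 1.0 and 1.31, and Ndufa1 at the bottom with −2.09 and −2.28.

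In complex IV, 2 of 11 nuclear members fell and 0 rose in P28, and 2 fell and 1 rose in P4M. The 11 include Cox6c2, which the annotation types as a processed pseudogene, with 0.276 to 1.42 CPM and no call. Cox6b1, the subunit on the intermembrane side, lay at 64.4, 100, 95.6, 144 and 126 CPM in Fgfr3-WT, 57.6, 73.6, 65, 48.8 and 43.6 CPM in P28, and 38.1, 40.4, 45.7 and 35.9 CPM in P4M clones. The P4M clones were all below the controls, whereas P28 overlapped WT replicate 1, and the log2 fold changes were −0.88 ± 0.20 (adjusted p = 0.00437) and −1.41 ± 0.22 (adjusted p = 0.00032). Cox7a2 fell in P28 by 0.46 (adjusted p = 0.0474), a call that held in only 2 of 11 other settings and 4 of 14 fits that left out 1 clone. Cox5a rose in P4M by 0.66 (adjusted p = 0.0307), with WT replicate 1 at 23.5 CPM against 45.9 to 64.2 CPM in the other controls and 76.9 to 85.5 CPM in P4M.
The isoforms known from heart and skeletal muscle were scarce: Cox6a2 lay between 0.198 and 11.7 CPM and did not pass, and Cox7a1 and Cox8b were below the count filter. Cox6b2 was also below it, and Cox7b2, Cox8c and a further Atp5o entry were listed at 0 TPM in every clone. The widely expressed Cox6a1 and Cox5b did not pass in either comparison.

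Complex V, the ATP synthase, had 3 of 17 nuclear members higher and 5 lower in P28, and 4 and 4 in P4M. Those that rose were parts of the catalytic head, stalks and ring. Atp5f1, of the peripheral stalk, lay at 75.6, 126, 92.5, 116 and 122 CPM in Fgfr3-WT, 163, 180, 157, 142 and 143 CPM in P28, and 198, 193, 184 and 174 CPM in P4M clones. It rose without overlap by 0.56 ± 0.14 (adjusted p = 0.00741) and 0.82 ± 0.15 (adjusted p = 0.000847). Atp5a1, the alpha subunit of the head, rose by 0.49 and 0.53 (adjusted p = 0.0114 and 0.00884).
Atp5g3, a ring subunit, rose in P28 (0.52, adjusted p = 0.0293), and Atp5g2, which encodes the same mature protein, and Atp5c1, the gamma subunit of the central stalk, rose in P4M (0.53 and 0.67, adjusted p = 0.0187 and 0.0172). Those that fell came from several parts of the enzyme. Atp5j, of the peripheral stalk, and the small membrane subunits Atp5j2 and Atp5mpl fell in both comparisons, by 0.45 to 0.71. In P28 the calls of Atp5j and Atp5j2 each held in only 5 of 11 other settings. Atp5e, the epsilon subunit of the central stalk, and Atp5l fell in P28, by 0.40 and 0.56 (adjusted p = 0.0442 and 0.0394), and Atp5k fell in P4M by 0.61 (adjusted p = 0.0197). The Atp5e call held in only 4 of 11 other settings and 4 of 14 fits that left out 1 clone. The Atp5l call held in 4 and 5 of these and was lost with copies added. Atp5b, the catalytic beta subunit, had the highest TPM of the nuclear members in all 3 groups and did not pass (log2 fold changes of 0.06 and 0.26).

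**Figure D4:**
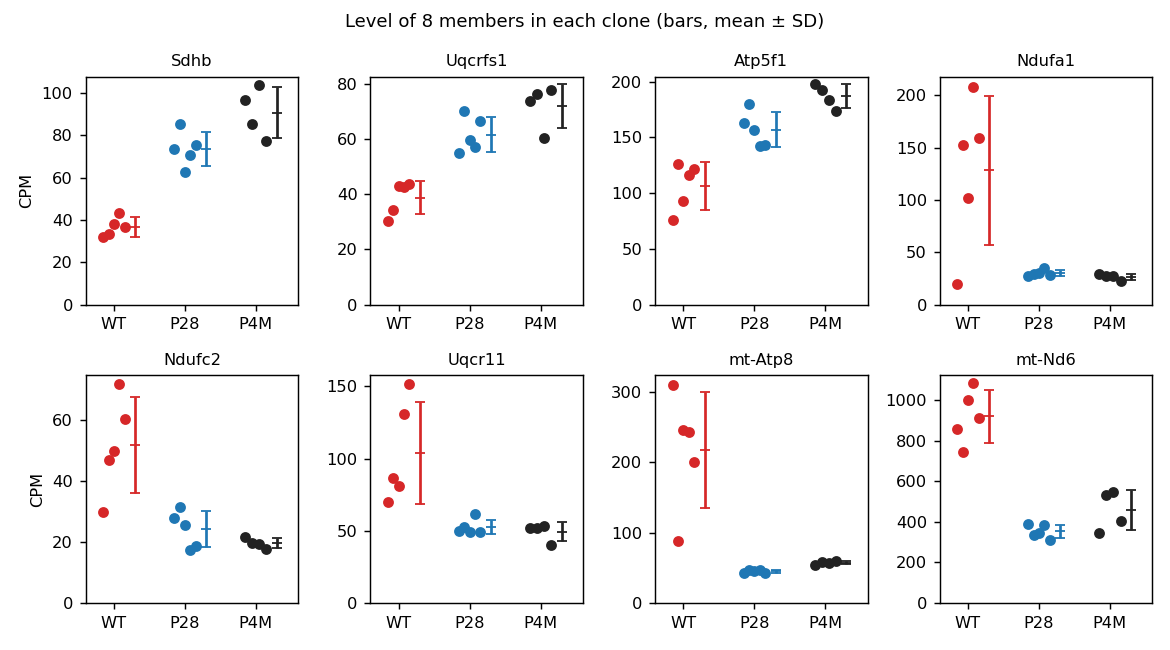
CPM of 8 members (y axes from 0) in each of the 14 clones (points), by group, with bars of the mean ± SD. For Sdhb the cKO clones sit between 62.5 and 104 CPM, above the highest Fgfr3-WT clone at 43.5 CPM, and for Ndufa1 1 Fgfr3-WT clone at 19.9 CPM lies below all cKO clones.

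Promoters are shown for a member that rose and a member that fell, Sdhb and Uqcr11, whose calls held in all 25 alternatives (GRCm38.p6, 5′ to 3′ on the gene's strand). Each window runs from 250 bases before to 50 after the start of the promoter entry. For both genes that start differs from the gene coordinates given above. Capitals mark matches to GCGCATG, here called the NRF1 motif, and to CCGGAAG, the ETS motif that GABP binds; each was searched on both strands.
Sdhb, chr4:140961021-140961320 (plus strand): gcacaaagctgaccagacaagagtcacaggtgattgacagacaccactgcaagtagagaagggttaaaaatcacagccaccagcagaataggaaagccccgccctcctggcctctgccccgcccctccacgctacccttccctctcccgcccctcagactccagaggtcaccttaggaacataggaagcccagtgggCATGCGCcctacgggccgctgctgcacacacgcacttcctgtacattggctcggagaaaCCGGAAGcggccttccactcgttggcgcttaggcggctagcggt
Uqcr11, chr10:80406772-80407071 (minus strand): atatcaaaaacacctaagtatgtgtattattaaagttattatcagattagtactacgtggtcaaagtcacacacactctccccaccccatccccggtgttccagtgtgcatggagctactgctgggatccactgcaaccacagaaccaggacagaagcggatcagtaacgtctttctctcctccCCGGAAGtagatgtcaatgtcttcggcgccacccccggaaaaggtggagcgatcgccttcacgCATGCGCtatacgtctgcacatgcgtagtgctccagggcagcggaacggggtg
Both promoters held 1 match of each motif, although the genes moved in opposite directions. A promoter entry was found for 65 of the 79 nuclear members with counts, and 20.0% of these held the NRF1 letters, beside 4.41% of 27025 genes. The ETS letters were in 26.2% beside 9.93%, those of YY1 (AAGATGG) in 15.4% beside 7.28%, and the E-box (CACGTG, the same on both strands) in 7.69% beside 8.09%. Among the 16 members with an entry that fell in P28, 2 held the NRF1 and 5 the ETS letters, and among the 4 that rose, 2 and 1. The windows of these short motifs can overlap, and a match describes letters only.

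The direction of the nuclear members went with transcript length. Their median transcript was 870 bases, beside 2782 for all tested genes. Members that rose in P28 had a median of 1484 bases and those that fell 683 bases, and in P4M 1604 and 707.5 bases. Of 44 members of up to 1000 bases, 1 rose and 16 fell in P28, and 2 and 17 in P4M, with median log2 fold changes of −0.40 and −0.44. Of all genes of that length, 11.7% rose and 24.5% fell in P28, and 16.5% and 23.5% in P4M. Of 32 longer members, 5 rose and 3 fell in P28, and 7 and 3 in P4M, with medians of 0.03 and 0.10.
All genes of up to 1000 bases had medians of −0.22 and −0.13, and longer ones 0.01 and −0.05. Other short genes thus shared part of the lean in P28. In P4M the share of them that fell was near that of longer genes, 23.5% beside 23.6%. A smaller share of them rose there, 16.5% beside 23.1%, and their median was the lower one. After a length trend was removed from each clone's values, 10 nuclear members rose and 12 fell in P28, beside 19.0% and 20.4% of all genes, and the median was −0.08. In P4M 10 rose and 16 fell, beside 22.9% and 23.5% of all genes, with a median of −0.07. Sdhb, Ndufa1, Uqcr11, Ndufc2 and Ndufb10 kept their calls in that fit. The part of length in each gene's difference was not tested further, and library set and genotype cannot be told apart in it.

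**Figure D5:**
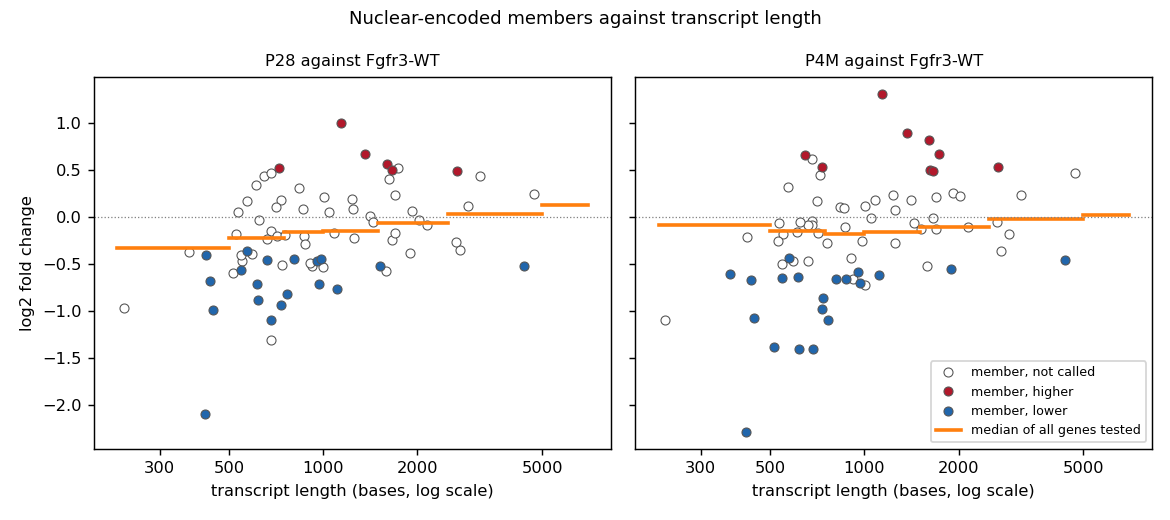
Log2 fold change against Fgfr3-WT (y axis) by transcript length in bases (x axis, log scale) for the tested nuclear members (red rose, blue fell, open did not pass), in P28 and P4M clones, with orange lines at the median of all tested genes of that length. Members that rose have a median length of 1484 bases in P28 and those that fell 683 bases.

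As sums, the nuclear members held nearly the same part of the library in each group: 0.658% ± 0.083 in Fgfr3-WT, 0.674% ± 0.057 in P28 and 0.658% ± 0.027 in P4M clones. The mitochondrial members held 2.83% ± 0.68, 2.14% ± 0.05 and 2.90% ± 0.46, of which mt-Co1 alone gave 1.12%, 0.748% and 1.13%. The 9 cKO clones lay within the control range of 1.79 to 3.60%, whose lowest clone was WT replicate 2. Each clone's ratio of mitochondrial to nuclear counts was 6.68, 2.71, 5.16, 3.88 and 3.65 in Fgfr3-WT, 3.32, 2.84, 3.15, 3.48 and 3.19 in P28, and 3.59, 4.33, 5.58 and 4.21 in P4M. All P4M ratios were above all P28 ratios, and the controls spanned both groups.
On the log2 scale the ratio in P28 was lower than in Fgfr3-WT by a mean of −0.40 and that in P4M differed by 0.05, while P4M exceeded P28 by 0.46. With copies added the ratio was lower by a mean of −0.61 in P28 and of −0.15 in P4M. Taken instead as the median over members of the counts as deposited, the log2 ratio was higher by 0.53 in P28 and 1.03 in P4M. This median ratio was not taken with copies added, and the values that follow are another measure. Relative to the Fgfr3-WT mean of each gene, the median log2 CPM of mitochondrial members with copies averaged −0.73 in P28 and −0.21 in P4M clones. The values for nuclear members were −0.16 and −0.09. With copies added to the sums, the mitochondrial members held 4.27% ± 1.08, 2.78% ± 0.06 and 3.77% ± 0.51 of the library.

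On the TPM scale, which is per length, mt-Atp8 came first in Fgfr3-WT (23530 ± 9669 TPM, SD) and mt-Co1 second (11880 TPM). In counts, mt-Atp8 averaged 218 CPM in these clones, beside 13360 CPM for mt-Co1 with copies. The place of mt-Atp8 thus rests on the deposited TPM of a short gene that overlaps mt-Atp6. How that TPM was derived was not tested. mt-Co1 came first in P28 and P4M (9016 and 12550 TPM) with mt-Atp8 second (7078 and 7983 TPM), and mt-Cytb came next in all groups. Ndufa1 moved from place 12 of the members in Fgfr3-WT to 38 in P28 and 42 in P4M. Sdhb moved from 85 to 67 and 61. The highest nuclear member, Atp5b, had 1017, 1202 and 1159 TPM.

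The P4M and P28 clones were compared within 1 library set. Of the 76 nuclear members 0 rose and 1 fell in P4M against P28, beside 3.34% and 3.88% of all genes, and of the 13 mitochondrial members 1 rose. When only these clones were fitted, 3 nuclear members fell and 6 mitochondrial members rose. The share of all genes called in that smaller fit is not given here, so these numbers cannot be set against it. Ndufa4, a subunit first assigned to complex I and now placed in complex IV, lay at 116, 107, 110, 126 and 119 CPM in P28 and at 101, 88.2, 71.2 and 67.1 CPM in P4M clones. It fell by 0.50 ± 0.14 (adjusted p = 0.0453), and the Fgfr3-WT clones, at 77.9 to 104 CPM, overlapped the P4M clones. mt-Co1 lay at 7429, 7590, 7257, 7132 and 6541 CPM in P28 and at 9976, 11040, 14087 and 10633 CPM in P4M, without overlap. It rose by 0.67 ± 0.18 (adjusted p = 0.0411), and the Fgfr3-WT clones spanned 7926 to 14166 CPM. All 13 mitochondrial log2 differences were positive, with a median of 0.40, also with copies added (0.41). Both calls were lost in every fit that left out a cKO clone, in the fit without a filter and when a difference above 0.5 was required.

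Genes that build and run the chain were counted from lists of their own. Of 47 assembly factors tested, 5 rose and 19 fell in P28, and 7 and 17 in P4M, with medians of −0.30 and −0.19. For these and the following lists the shares of all genes are 19.2% higher and 19.7% lower in P28, and 22.3% and 23.6% in P4M. Coa4, a complex IV assembly factor, fell by 1.75 and 1.85 on the log2 scale (adjusted p = 0.000224 and 0.000196), and Uqcc3, of complex III, by 1.64 and 2.29 (adjusted p = 0.00142 and 0.000255). Coa7 rose by 0.80 and 1.59, and Ndufaf6, for complex I, by 0.90 and 1.21.
Of 29 genes of mitochondrial DNA replication and RNA, 6 rose and 7 fell in P28, and 11 and 7 in P4M. Fastkd5, needed for the processing of mitochondrial mRNAs that tRNAs do not flank, rose by 1.22 and 1.20 (adjusted p = 0.000321 and 0.000358). Polrmt, the mitochondrial RNA polymerase, fell by 0.76 and 0.53 (adjusted p = 0.0057 and 0.0389). Tfam, which packages mitochondrial DNA, did not pass against Fgfr3-WT and rose in P4M against P28 by 0.54 (adjusted p = 0.0297). Mterf4, which guides mitochondrial ribosome assembly, fell by 1.25 and 2.56, and fell further in P4M against P28, by 1.31 (adjusted p = 0.0276).

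Of 10 regulators of mitochondrial biogenesis, 4 rose and 1 fell in P28, and 6 and 1 in P4M. Nrf1 rose by 0.46 and 0.74 (adjusted p = 0.0196 and 0.00157), and Gabpb1, a subunit of GABP, by 0.69 and 0.98 (adjusted p = 0.00288 and 0.000348). Esrra fell in P28 by 1.32 (adjusted p = 0.00203), and Ppargc1a, a coactivator, fell in P4M by 3.44 (adjusted p = 0.0066). Ppargc1b went the other way in P4M, with the largest called rise of this list. Of 78 mitochondrial ribosomal proteins, 18 rose and 10 fell in P28 and 24 and 12 in P4M, or 23.1% and 30.8% higher. Of 16 genes of pyruvate dehydrogenase and the citric acid cycle 4 rose and 1 fell, and 8 and 0.
Of 8 carriers, channels and uncoupling proteins 1 rose and 2 fell in P28, and 2 and 3 in P4M, and Vdac2, an outer membrane channel, rose by 0.69 and 1.08 (adjusted p = 0.000204 and 1.35e-05). Of 7 mitochondrial genes linked to p53, 0 rose and 1 fell in P28, and 1 and 1 in P4M. Sco2, a copper chaperone of complex IV, did not pass in P28 (0.09, adjusted p = 0.743), rose in P4M by 0.98 (adjusted p = 0.00139) and rose in P4M against P28 by 0.90 (adjusted p = 0.0178). Rrm2b, which supplies deoxynucleotides outside S phase, fell in P28 by 0.94 (adjusted p = 0.0196).
Subunits that the name pattern left out moved either way: Cyc1, cytochrome c1 of complex III, rose by 0.52 and 0.66 (adjusted p = 0.0155 and 0.00447), and Ndufab1, the mitochondrial acyl carrier protein, fell by 0.81 and 1.15 (adjusted p = 0.000479 and 6.66e-05). Cox4i1, the main isoform of complex IV subunit 4, and Cycs, somatic cytochrome c, did not pass.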

How the data were processed

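RNA of 14 single clones was made into cDNA with the SMART-Seq v4 kit and sequenced on an Illumina instrument. Per the labels and the study's methods, the authors used TopHat and Bowtie2 to place reads on the mm10 assembly and HTSeq to count unambiguous reads per gene, and deposited raw counts per gene and, separately, TPM values per gene. Reads that match a gene and a copy equally well can be lost or divided in such counts.

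Counts were compared with edgeR's quasi-likelihood test (edgeR 4.0.16, R 4.3.3, TMM scaling, filterByExpr, 3 groups in 1 fit, false discovery rate 0.05 over 17358 genes), and limma 3.58.1 was used on log2(TPM + 1) and DESeq2 1.42.0 as alternatives. Copies were found with blastn 2.17.0 against GENCODE M21 transcripts. Named genes were the mitochondrial members, the 4 called nuclear members with the largest positive and negative log2 fold changes in each comparison, a set of core subunits and tissue isoforms, and the largest called changes of each related list; other members were named after their values were seen, to describe each complex. The members, lists and tests were chosen with earlier results of these data known. The fit was tested on simulated data. Replicate numbers are running numbers in accession order and pair no clones. The deposited normalised, FPKM and expected-count tables were not used, and mitochondrial tRNA genes were not analysed here. Some single-gene results are not reported here.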

Additional observations from a re-analysis of the deposited data

Results flagged for a closer look

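In 18 of 267 groups of 4 or 5 clones, over members and related genes, 1 clone stood apart from the rest by Dixon's criterion, which chance meets in about 1 group in 20. Of the Fgfr3-WT clones, replicate 2 was low for mt-Nd4 (1940 CPM) and Coa4 (4.32 CPM) and high for mt-Rnr1 (1350 CPM) and for the share of mitochondrial rRNA in the library (0.395%). Replicate 3 stood apart for Sdha (259 CPM) and Fastkd2 (29.7 CPM), replicate 1 for Nrf1 (35.1 CPM) and Ppargc1b (2.21 CPM), and replicate 5 for Ucp2 (32.8 CPM). Of the P28 clones, replicate 2 stood apart for Cox5a (85.4 CPM), Cyc1 (146 CPM), Atp5c1 (152 CPM) and Cox6a2 (7.48 CPM). Of the P4M clones, replicate 3 stood apart for Atp5a1 (478 CPM), Ppargc1a (0.928 CPM) and Ndufa4l2 (6.46 CPM), replicate 4 for Uqcr11 (40.1 CPM) and replicate 2 for Sco2 (26.2 CPM).

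The cKO groups differed from each other, in edgeR's test of P4M against P28, at 2 members, Ndufa4 with a log2 difference of −0.50 and mt-Co1 with 0.67.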

How the results depend on the processing

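Besides the settings planned, 2 were chosen after seeing the data: adding the counts of pseudogene copies and removing a length trend. With copies added the mitochondrial medians were −0.78 in P28 and −0.22 in P4M, 0 genes rose in either, 10 fell in P28, and the sign turned in P28 for mt-Atp6 (−0.43), mt-Co2 (−0.93), mt-Co3 (−0.84), mt-Nd3 (−0.62) and mt-Nd4l (−0.73) and in P4M for mt-Co2 (−0.55), mt-Co3 (−0.22), mt-Nd3 (−0.21) and mt-Nd4l (−0.33). Numbers of nuclear members that rose in P28 were 10 with at least 10 counts in every clone, 10 with the length trend removed, 19 in limma on TPM, 1 at a minimum log2 change of 0.5 and 11 without scaling. In P4M they were 15 in limma, 3 at that minimum and 5 with only the groups compared. Numbers that fell in P28 were 12 with the length trend removed, 10 in limma, 4 at the minimum, 11 without a filter (Cox7a1, otherwise not tested, among them), 10 without scaling and 12 with only the groups compared, and in P4M 7 at the minimum. In P4M against P28, nuclear members that fell numbered 2 in DESeq2, 3 with the length trend removed, 4 in limma, 0 at the minimum, 0 without a filter, 2 without scaling and 3 with only the groups compared. Mitochondrial members that rose there numbered 2 in DESeq2, 6 with only the groups compared, and 0 with at least 10 counts, in limma, at the minimum, without a filter and without scaling. In limma the nuclear medians were 0.14 (P28) and −0.20 (P4M against P28) and the mitochondrial median −0.10 (P28), with medians of all genes of 0.20 and −0.14. As a median over members of the counts as deposited, the log2 ratio of the genomes was higher by 0.53 in P28 and 1.03 in P4M. Leaving out 1 clone gave 12 to 34 nuclear members that fell in P28, 34 without WT replicate 1 and 12 without WT replicate 4 or P28 replicate 3, 0 to 2 in P4M against P28, and 0 to 2 mitochondrial members that rose there. Among 121 tests of named genes, over the other settings, 1199 values kept direction and call, 121 kept the direction only and 9 turned; leaving out 1 clone, 1557 kept both, 137 the direction only and 0 turned. Where no share of all genes is given for a setting, its number of called members cannot be set against one. Except for the copies, whose construction moves counts, the cause was not tested. No paired analysis was possible because replicate numbers are running numbers that pair no clones. The 3 nuclear members with counts below the filter were not tested.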
